A study of Mus musculus with 6 samples.

Results

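The 6 genes Mef2c, Satb1, Dntt, Cd27, Il7r and Ighm belong to the lymphoid priming program, the set of lymphocyte genes that blood progenitors begin to transcribe before they commit to a lymphoid fate. They were examined through every probe set of the deposited table that carries one of these symbols alone, 24 of 28821 probe sets and 6 of 13146 genes. The genes were chosen with their levels in leukemia and wild-type cells already known, so those values are described and not tested. The leukemia group held 3 samples of Lin-/Sca1-/cKit+ cells, one from the spleen of each of 3 numbered mice, which were irradiated adult MF1 recipients of progenitor cells transduced with AE9a, a truncated AML1-ETO fusion protein. The wild-type group held 3 samples of Lin-/Sca1-/cKit+ cells from the bone marrow of MF1 mice of wild-type genotype. All mice were 12 to 16 weeks old. The gate keeps progenitors that lack lineage markers and Sca1 and carry the receptor Kit, and lymphoid-primed progenitors with high Sca1 lie outside it. Organ and transplantation differ with the disease and cannot be told apart from it, and in sorted bulk samples fewer cells of a type cannot be told apart from less RNA per cell.

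Lymphoid priming begins in multipotent progenitors, where factors of the E protein, Ikaros and PU.1 families open lymphoid genes while myeloid genes are still transcribed. Signals through Flt3 and the interleukin-7 receptor then support common lymphoid progenitors, and the recombinase and terminal transferase rearrange and diversify antigen receptor genes. Some transcripts, such as those of Dntt and unrearranged Ighm, are found at a low level in progenitors that can still make myeloid cells.

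The start regions of 5 of the 6 genes were matched in the RefSeq promoter table of build GRCm38.p6 (3 start sites for Mef2c, 5 for Satb1 and 1 each for Dntt, Cd27 and Il7r), each a window of 300 bases from 250 before to 50 after the start. They were searched on both strands for TGTGGT and TGCGGT, the core of the motif that the AML1 part of the fusion binds, and for GAGGAA, a core of PU.1 sites. The windows printed are that of Il7r, which holds TGTGGT, 1 of Mef2c, which holds GAGGAA, and that of Dntt, which holds none of the 3, and matched letters are in capitals.
Il7r, chr15:9529827-9530126, minus strand: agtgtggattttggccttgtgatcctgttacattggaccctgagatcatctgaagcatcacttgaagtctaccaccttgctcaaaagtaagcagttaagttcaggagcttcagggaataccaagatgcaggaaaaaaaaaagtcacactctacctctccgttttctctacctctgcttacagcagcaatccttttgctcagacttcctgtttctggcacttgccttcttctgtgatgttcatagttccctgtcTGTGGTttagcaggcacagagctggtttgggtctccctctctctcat
Mef2c, chr13:83503784-83504083, plus strand: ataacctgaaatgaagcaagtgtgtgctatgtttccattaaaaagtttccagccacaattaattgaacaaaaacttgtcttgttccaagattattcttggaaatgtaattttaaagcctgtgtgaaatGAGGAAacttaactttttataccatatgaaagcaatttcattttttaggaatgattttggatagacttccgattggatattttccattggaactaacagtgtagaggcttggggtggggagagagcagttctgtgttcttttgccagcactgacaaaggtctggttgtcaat
Dntt, chr19:41029025-41029324, plus strand: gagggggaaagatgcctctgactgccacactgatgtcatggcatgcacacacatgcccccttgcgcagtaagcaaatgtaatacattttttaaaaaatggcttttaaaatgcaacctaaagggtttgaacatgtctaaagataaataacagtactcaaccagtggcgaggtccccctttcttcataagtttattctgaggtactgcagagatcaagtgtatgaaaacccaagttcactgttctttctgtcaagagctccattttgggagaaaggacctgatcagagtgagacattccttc
TGTGGT or TGCGGT was present in 1 of the 11 windows of these genes, a share of 9.09%, and in 22.4% of the 32851 windows searched. GAGGAA was present in 5 of the 11 windows (45.5%), against 28.3% of all windows. The 5 were 2 of the Mef2c windows and 3 of the Satb1 windows, and 2 of the Satb1 windows overlap each other. A match in a window is a run of letters and was not tested as a binding site.

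Each sample was hybridised to 1 Affymetrix Mouse430_2 array, so the precision is that of 3 arrays a group. Values are log2 of the deposited linear intensities. Median intensities ran from 71.6 to 77.4 on the leukemia arrays and from 77.7 to 79.9 on the wild-type arrays. By the files of the array runs there were 2 fluidics runs, and leukemia replicate 1 shared its run with all wild-type arrays. A probe set for 18S ribosomal RNA, which is not a poly(A) transcript, was at 12.35, 11.25 and 11.14 on leukemia arrays 1, 2 and 3, against 9.41, 8.18 and 7.77 on wild-type arrays 1, 2 and 3 (exact permutation p = 0.1, two-sided, the smallest that 3 against 3 allows). For the Gapdh control probe sets the 3′ signal minus the 5′ signal was 0.31, 0.08 and 0.01 on leukemia arrays 1, 2 and 3, against -0.14, -0.10 and -0.06 on wild-type arrays 1, 2 and 3 (exact permutation p = 0.1, two-sided). That of Actb overlapped between the groups (exact permutation p = 0.9, two-sided). The part of these signs in the values below was not tested. Kit, the receptor of the gate, was at 9.34 to 9.80 in leukemia cells, against 10.35 to 10.42 in wild-type cells. Ptprc, which encodes the leukocyte antigen CD45, was at 2.92 to 3.46 in leukemia cells, against 10.61 to 10.99 in wild-type cells.

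All 6 genes were lower in leukemia cells by their brightest probe set, with differences from -6.40 to -3.13 log2, and on none did the groups overlap. Lower values without overlap were found for 35% of the 9715 tested genes, and since the genes were chosen on this contrast nothing is read from their count. A value is called dim here where it lies under the 40th percentile of the array's probe sets, at 5.39 to 5.43 log2 on leukemia arrays and 5.51 to 5.54 on wild-type arrays. By these 6 probe sets every leukemia value was dim and no wild-type value was.

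**Figure D1:**
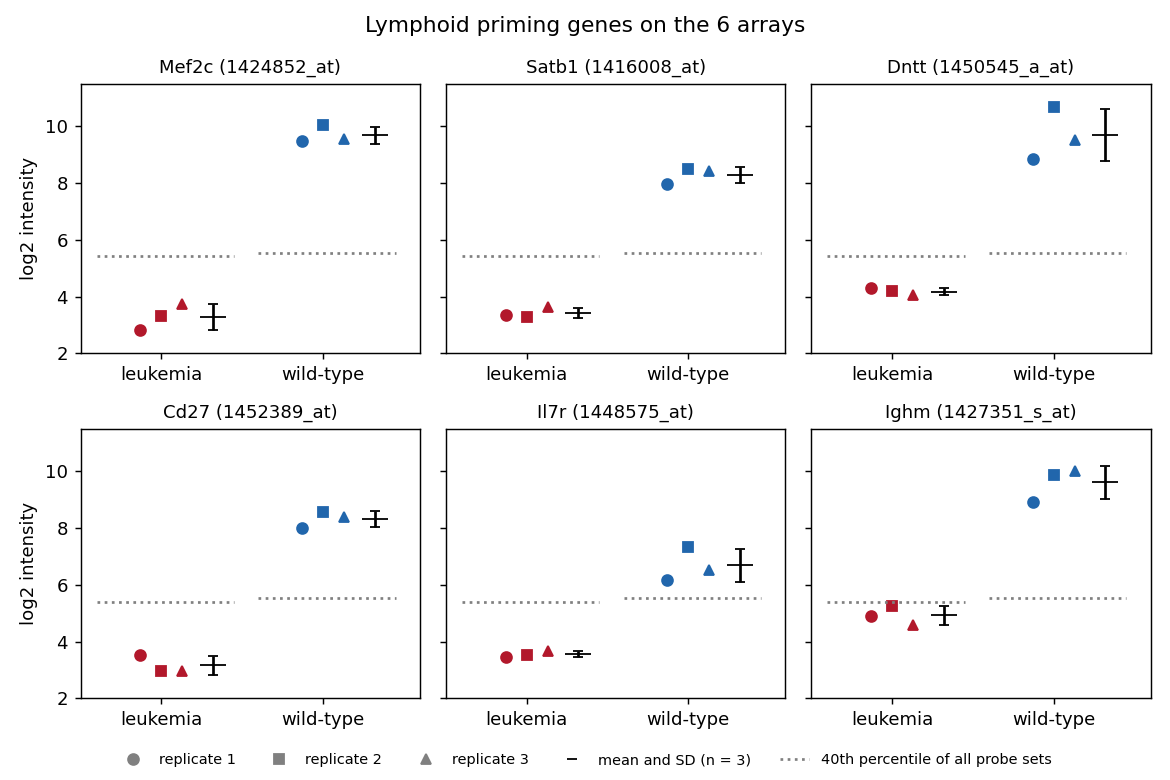
Log2 intensity (vertical axis) of the brightest probe set of each gene on the 3 leukemia arrays (left, red) and the 3 wild-type arrays (right, blue). Symbols mark replicates, black bars the mean and SD (n = 3), and dotted lines the 40th percentile of all probe sets. Leukemia values lie under the dotted line in each panel and wild-type values above it.

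Mef2c encodes a MADS-box transcription factor that supports lymphoid at the expense of myeloid choice in progenitors. Its brightest probe set, 1424852_at, was at 2.82, 3.33 and 3.72 log2 on leukemia arrays 1, 2 and 3, against 9.48, 10.03 and 9.55 on wild-type arrays 1, 2 and 3. The lowest leukemia value was on the array that shares the wild-type fluidics run. The means were 3.29 ± 0.45 in leukemia and 9.69 ± 0.30 in wild-type cells (SD, n = 3 each), a difference of -6.40 ± 0.27 (limma SE) or 84.2-fold. The other 4 probe sets of the gene were lower in leukemia as well, with differences from -4.70 to -2.34, and on none of the 5 did the groups overlap. All 5 were dim on every leukemia array, and with dim values raised to the 40th percentile their differences ran from -4.27 to -0.90.

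Satb1 encodes a chromatin organiser that folds the T cell genome into loops and is needed for lymphoid output of stem cells. Its brightest probe set, 1416008_at, was at 3.35, 3.28 and 3.62 log2 on leukemia arrays 1, 2 and 3, against 7.95, 8.50 and 8.41 on wild-type arrays 1, 2 and 3. The leukemia values differed among themselves by 0.34 and lay more than 4 log2 units under the lowest wild-type value. The difference of means was -4.87 ± 0.20 (limma SE), with 3.41 ± 0.18 in leukemia and 8.29 ± 0.29 in wild-type cells (SD, n = 3 each). On a further pair of probe sets the differences were -4.50 and -2.36, without overlap. The remaining pair was dim on all 6 arrays, and their differences were -0.38, without overlap, and 0.11, with overlap.

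Dntt encodes terminal deoxynucleotidyl transferase, which adds bases without a template at the joints of rearranging antigen receptor genes. Its brightest probe set, 1450545_a_at, was at 4.28, 4.18 and 4.06 log2 on leukemia arrays 1, 2 and 3, against 8.86, 10.69 and 9.52 on wild-type arrays 1, 2 and 3. The leukemia arrays lay within 0.23 of each other and the wild-type arrays were 1.82 apart. The difference of means was -5.52 ± 0.43 (limma SE), or 45.7-fold, with 4.18 ± 0.11 in leukemia and 9.69 ± 0.92 in wild-type cells (SD, n = 3 each). The other 2 probe sets had differences of -4.52 and -4.48, and their wild-type values were spread in the same way, with replicate 2 highest and replicate 1 lowest on all 3 probe sets.

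Il7r encodes the alpha chain of the interleukin-7 receptor, which also serves the cytokine TSLP, and its surface protein marks common lymphoid progenitors. Its brightest probe set, 1448575_at, was at 3.47, 3.51 and 3.68 log2 on leukemia arrays 1, 2 and 3, against 6.19, 7.35 and 6.52 on wild-type arrays 1, 2 and 3. The difference of means, -3.13 ± 0.30 (limma SE) or 8.77-fold, was the smallest of the 6 by brightest probe sets, while with the mean of all probe sets Ighm had a smaller one (-1.23, against -2.12 for Il7r). The means were 3.55 ± 0.11 in leukemia and 6.68 ± 0.60 in wild-type cells (SD, n = 3 each). Its second probe set was dim on all 6 arrays and had a difference of -1.10, again without overlap. The Il7r start window printed above is the one with TGTGGT, 4 bases after the annotated start.

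Cd27 encodes a receptor of the TNF receptor family that is carried by lymphocytes and by early multipotent and lymphoid progenitors. Its single probe set, 1452389_at, was at 3.55, 2.97 and 2.97 log2 on leukemia arrays 1, 2 and 3, against 8.02, 8.57 and 8.40 on wild-type arrays 1, 2 and 3. Here leukemia replicate 1 was the highest of the leukemia arrays and wild-type replicate 1 the lowest of the wild-type arrays. The difference of means was -5.17 ± 0.23 (limma SE), or 35.9-fold, with 3.16 ± 0.33 in leukemia and 8.33 ± 0.28 in wild-type cells (SD, n = 3 each).

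Ighm encodes the constant region of the immunoglobulin mu heavy chain, and its 8 probe sets divided. The brightest, 1427351_s_at, was at 4.91, 5.26 and 4.60 log2 on leukemia arrays 1, 2 and 3, against 8.94, 9.89 and 10.02 on wild-type arrays 1, 2 and 3. The difference of means was -4.69 ± 0.32 (limma SE), with 4.92 ± 0.33 in leukemia and 9.62 ± 0.59 in wild-type cells (SD, n = 3 each). The next, 1427329_a_at, was at 4.13, 4.03 and 3.91 on the leukemia arrays and at 8.85, 9.90 and 9.94 on the wild-type arrays, a difference of -5.54. On the other 6 probe sets of this symbol the groups overlapped, with differences between -0.20 and 0.26, and 5 of these 6 were dim on all arrays. The sixth, 1427870_x_at, was dim on none, at 6.04, 5.96 and 6.13 in leukemia and at 5.82, 6.20 and 6.31 in wild-type cells. Of the 8 probe sets 7 have identifiers with an ending for shared or variant transcripts, and the only one without, 1426196_at, differed by 0.18. The direction for Ighm thus rests on 2 probe sets, and a further 3 probe sets that name Ighm together with other immunoglobulin genes were not counted.

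**Figure D2:**
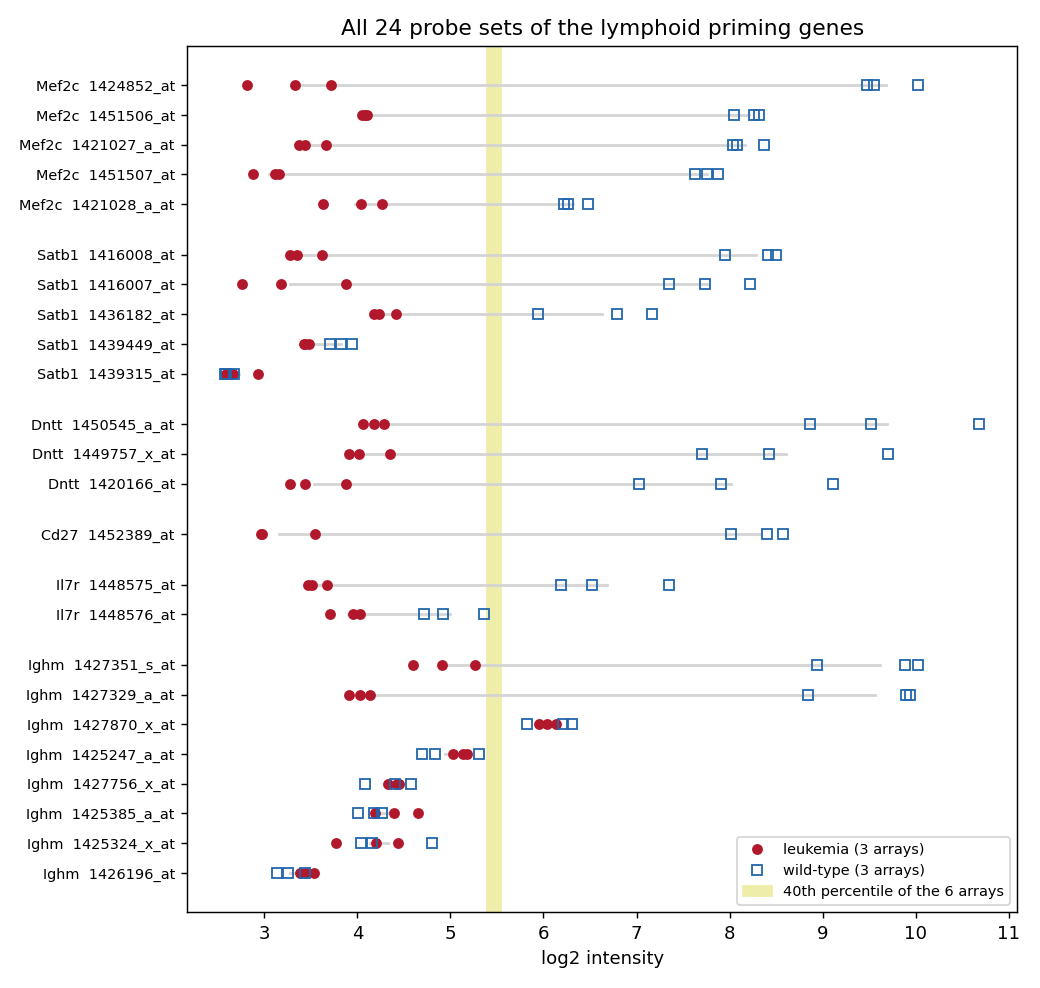
Log2 intensity (horizontal axis) of all 24 probe sets on the 3 leukemia arrays (red circles) and the 3 wild-type arrays (open blue squares). Grey lines join the group means, and the shaded band spans the 40th percentiles of the 6 arrays. The groups are apart on 17 probe sets and overlap on 7, of which 6 are of Ighm and 1 of Satb1. The share over all probe sets is not given, so nothing is read from these counts.

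Over the 24 probe sets, 17 were lower in leukemia without overlap, 0 were higher without overlap and 7 overlapped. The share over all probe sets is not given here, and probe sets of 1 gene are not independent, so nothing is read from this count. By definition 40% of all probe sets are dim on an array. The share dim on every array of a group can be no larger and is not given here. Of the 24, 23 were dim on every leukemia array and 8 on every wild-type array. The leukemia level of the genes is thus near the low end of what the arrays report, and the sizes depend on how low intensities are treated. With 16 added to each intensity before the log, the differences of the brightest probe sets were -5.01 for Mef2c, -3.62 for Satb1, -4.63 for Dntt, -3.75 for Cd27, -2.11 for Il7r and -4.11 for Ighm. With every value below its array's 40th percentile raised to it, they were -4.27, -2.87, -4.28, -2.92, -1.27 and -4.20 in the same order. All 6 stayed lower in leukemia under both treatments, and when each array was left out in turn the differences lay between -6.61 and -2.80.

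The wild-type arrays differed among themselves in these genes, a difference within 1 group that the contrast of leukemia with wild-type does not measure, although it comes from the same arrays. Wild-type replicate 2 was above wild-type replicate 1 for all 6, by 1.82 for Dntt, 1.16 for Il7r, 0.95 for Ighm and 0.55 each for Cd27, Mef2c and Satb1. A difference of at least 0.5 in this direction was present in 5.15% of the 9715 tested genes, whose median difference was 0.01. The 6 genes were dim on all leukemia arrays and so passed into the tested genes through these wild-type arrays alone. The cut of 0.5 also lies just under their smallest difference, so these shares are a description and not a test. Among all tested genes Dntt had the second largest such difference and Il7r ranked 18. For 5 of the 6 genes replicate 2 was highest, replicate 3 next and replicate 1 lowest, an order that 22.9% of tested genes had, and for Ighm replicate 3 was highest. Replicate 2 was highest on all 3 probe sets of Dntt and both of Il7r, but on 3 of the 5 of Mef2c. With the mean of all probe sets 4 of the 6 genes had a difference of at least 0.5, and Mef2c was then at 0.07. With probe sets without shared endings Ighm was at -0.12, by a probe set that was dim on all 6 arrays.

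**Figure D3:**
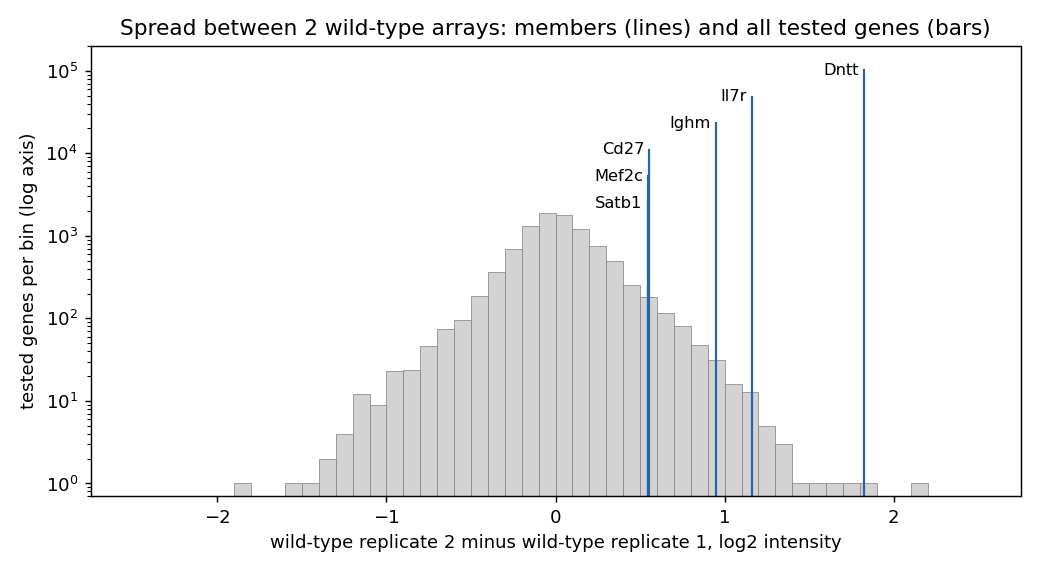
Number of tested genes (vertical log axis) by the log2 difference of wild-type replicate 2 minus wild-type replicate 1 (horizontal axis). Blue lines mark the brightest probe sets of the 6 genes, which lie between 0.55 and 1.82.

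Of the 70 tested genes of 8 pathway lists 28 (40%) had this order over the wild-type arrays, against 22.9% of all tested genes. The lists were written with earlier results of these data known. Some of their genes, Cxcr4, Gfi1 and Vpreb1 among them, passed the filter through these wild-type arrays alone. The counts by list are thus a description and not a test. Of the 7 tested surface molecules of lymphoid-primed progenitors 6 had the order of replicate 2, then 3, then 1. So did all 4 tested genes of the antigen receptor and recombinase list, which are Btk, Syk, Vpreb1 and Cd79b. As an example picked by no rule, Flt3, the receptor that sustains lymphoid-primed progenitors, was at 9.12, 9.95 and 9.36 log2 on wild-type arrays 1, 2 and 3. Of the 8 tested genes of end joining and DNA polymerases 1 had that order, and of the 14 tested lymphoid transcription regulators 3 did. Gfi1, picked likewise from these 3, was at 8.12, 9.04 and 8.38. Bcl11a of the same list was lowest on replicate 2, at 9.87, 9.50 and 9.87. In the lists around Il7r, Cd27, MEF2 and SATB1 it was found for 4 of 9, 4 of 11, 4 of 10 and 2 of 7 genes. Rhag, a red cell membrane gene picked after its values were seen, was lowest on replicate 2, at 8.25, 6.92 and 8.18. The largest difference in that direction was that of Bcat2, at 8.54, 6.71 and 8.79. Genes outside the lists also had the order of replicate 2, then 3, then 1. Picked in the same way, Hpse was at 7.92, 9.53 and 8.47, and Cybb at 6.47, 7.61 and 7.20. The 18S value was highest on wild-type replicate 1, and its part in this spread was not tested.

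The 2 tested genes nearest to each of the 6 were sought by the root mean square difference over the 6 arrays after each gene was centred on its wild-type mean. For Mef2c these were Ms4a6b and Tifab, at 0.20 and 0.24 log2 units. For Satb1 they were Ms4a3 (0.19) and Pstpip1 (0.19), and for Dntt they were Ms4a6c (0.32) and Igsf6 (0.34). Cd27 was nearest to Napsa (0.13) and Parp8 (0.13), Il7r to Kif17 (0.12) and Sorl1 (0.14), and Ighm to Esr1 (0.21) and Gatm (0.26). The distance runs over the same values of both groups on which the 6 were chosen, so it is a description.

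Other genes of the same pathways were tested with limma over all genes, in 8 lists that leave out the 6. Of 108 listed genes 88 were measured and 70 passed the filter on dim genes. Of these 26 fell (37.1%) and 11 rose (15.7%) in leukemia, against 25.2% and 16.9% of all 9715 tested genes, 42.1% in either direction. The median difference was -0.24, against -0.09 over all tested genes. The lists were written with earlier results of these data known. Gfi1, Cxcr4, Tslp and Tnfrsf1b, among others, passed the filter through the wild-type arrays alone, and Gata3 and Relb through the leukemia arrays alone. These shares are therefore a description and not a test of the lists. The count of rises was 6 without wild-type replicate 2 and 7 without leukemia replicate 2, wild-type replicate 1 or wild-type replicate 3. The 18S and fluidics run values given above accompany these counts too. Where the run is a block below, a difference is that of leukemia replicate 1, which shares the wild-type run, from the wild-type mean. Such a difference rests on 1 leukemia array.

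Of the 14 tested lymphoid transcription regulators 6 fell and 2 rose, with a median of -0.57. Gfi1, a repressor that acts in lymphoid and granulocytic progenitors, was at 3.24 to 3.72 log2 in leukemia against 8.12 to 9.04 in wild-type cells and fell by 5.04 (limma adjusted p = 2.26e-05), with a difference of -3.81 when 16 was added. Tcf4, an E protein of lymphoid and plasmacytoid dendritic cells, was at 7.36, 4.34 and 3.99 on leukemia arrays 1, 2 and 3, against 8.84, 8.89 and 8.59 on the wild-type arrays. It fell by 3.54 (limma adjusted p = 0.0134), with -4.61 when leukemia replicate 1 was left out, -2.92 when leukemia replicate 3 was, and -1.41 when the run was a block. The difference was -2.94 with 16 added, -2.84 with the mean of its probe sets and -4.25 with array weights. Its limma adjusted p was 0.0515 without wild-type replicate 2. Gata3, a zinc finger factor of T cell development, was higher in leukemia. It was at 7.79, 8.26 and 9.94 in leukemia, against 4.92, 5.09 and 4.92 in wild-type cells, and rose by 3.69 (limma adjusted p = 0.00155). It was dim on all wild-type arrays. Its difference was 3.16 with 16 added, 3.05 without leukemia replicate 3 and 2.81 when the run was a block. Hhex, a homeobox gene of early progenitors, rose by 0.79 (limma adjusted p = 0.0186), and did not pass when wild-type replicate 1 (0.0638) or 2 (0.0694) was left out. The B lineage factor Ebf1, at 2.49 to 2.54 in leukemia against 2.65 to 2.90 in wild-type cells, was too dim to be tested.

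Surface molecules of lymphoid-primed progenitors fell in 5 of 7 tested members and rose in 0, with a median of -3.32. Cxcr4, the receptor that retains progenitors in marrow, fell by 5.34 (limma adjusted p = 5.18e-05), with a difference of -4.35 when 16 was added. Flt3 fell by 3.95 (limma adjusted p = 2.88e-05) to 5.49 to 5.55 in leukemia, against 9.12 to 9.95 in wild-type cells. Ly6d, a marker of B-committed lymphoid progenitors, was left out as dim. It was at 4.25, 9.76 and 4.23 on leukemia arrays 1, 2 and 3, against 4.51, 5.64 and 5.08 on wild-type arrays 1, 2 and 3, so that leukemia replicate 2 stood apart from the other 5 arrays.

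Of the 4 tested genes of the antigen receptor and recombinase list (Btk, Syk, Vpreb1 and Cd79b) 2 fell and 0 rose. Vpreb1, a surrogate light chain of the pre-B cell receptor, was at 3.88 to 5.18 in leukemia against 5.77 to 6.35 in wild-type cells and fell by 1.51 (limma adjusted p = 0.0138). It did not pass when wild-type replicate 2 (0.0565) or 3 (0.0580) was left out, and its difference was -2.26 when the run was a block. Syk, a kinase downstream of antigen and Fc receptors, fell by 2.55 (limma adjusted p = 0.0106), with -1.97 when leukemia replicate 1 was left out, -3.20 when leukemia replicate 2 was, and -3.73 when the run was a block. With the mean of its probe sets it was -1.83. Rag1, the recombinase subunit, was dim, at 2.52, 3.05 and 2.74 in leukemia, against 2.98, 4.39 and 3.12 in wild-type cells, with the highest value on wild-type replicate 2.

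Dntt has relatives in the DNA polymerase X family, which fill gaps at broken DNA ends. Polm, its closest relative, was at 7.73 to 8.21 in leukemia, against 7.51 to 7.79 in wild-type cells, a difference of 0.35 that did not pass (limma adjusted p = 0.130) but passed without leukemia replicate 1 (0.48, limma adjusted p = 0.0288). Poll, which encodes polymerase lambda, fell by 1.19 (limma adjusted p = 0.00656). Of the 8 tested genes of this family and of end joining 2 fell and 1 rose, with a median of -0.11. Prkdc, the catalytic kinase of end joining, fell by 0.60 (limma adjusted p = 0.0112), and did not pass when wild-type replicate 1 (0.0527) or 2 (0.0529) was left out. Xrcc5, the Ku80 subunit, rose by 0.79 (limma adjusted p = 0.0362), and did not pass when any array but wild-type replicate 1 was left out (limma adjusted p up to 0.0845), nor when the run was a block (0.0926). Without wild-type replicate 2 its difference was 0.52.

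Around Il7r, 4 of 9 tested pathway genes fell and 2 rose, with a median of -0.22. Tslp, a cytokine that signals through the Il7r chain, was at 2.87 to 3.62 in leukemia against 5.70 to 5.87 in wild-type cells and fell by 2.63 (limma adjusted p = 2.25e-04), and its difference was -1.49 with 16 added. Bcl2, the survival gene downstream of the receptor, fell by 3.13 (limma adjusted p = 0.0123), with -2.27 when leukemia replicate 2 was left out and -3.82 when leukemia replicate 3 was. It did not pass when wild-type replicate 2 was left out (limma adjusted p = 0.0512) or the run was a block (0.0668), and with the mean of its probe sets the difference was -2.21. The STAT5-induced inhibitor Cish was at 7.93, 9.72 and 8.43 in leukemia, against 6.30, 6.79 and 6.65 in wild-type cells, and rose by 2.12 (limma adjusted p = 0.00809). When the run was a block its difference was 1.35 (limma adjusted p = 0.0536). Jak1, the kinase bound to the Il7r chain, rose by 0.59 (limma adjusted p = 7.89e-04), and its difference was 1.36 with the mean of its probe sets.

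Around Cd27, 2 of 11 tested pathway genes fell and 3 rose, with a median of -0.14. Tnfrsf1b, another receptor of the same family, was at 3.80 to 4.14 in leukemia against 6.99 to 7.94 in wild-type cells and fell by 3.57 (limma adjusted p = 9.22e-05), and its difference was -1.88 with the mean of its probe sets and -2.68 with 16 added. Siva1, a protein first found bound to CD27, fell by 0.39 (limma adjusted p = 0.0179), and did not pass when wild-type replicate 2 (0.0652) or 3 (0.0810) was left out or with the mean of its probe sets (-0.18, limma adjusted p = 0.169). Relb and Birc3, both genes of the NF-kappaB pathway that such receptors use, rose by 1.28 (limma adjusted p = 0.00234) and 0.97 (limma adjusted p = 0.00485). Relb was dim on all wild-type arrays, at 4.65 to 5.17, and its difference was 0.94 with 16 added.

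Of the other MEF2 genes Mef2a was higher and Mef2d lower in leukemia. Mef2a was at 8.88 to 9.22 in leukemia against 7.96 to 8.29 in wild-type cells and rose by 0.95 (limma adjusted p = 0.00251). Mef2d was at 8.17 to 8.65 against 9.06 to 9.25 in wild-type cells and fell by 0.85 (limma adjusted p = 0.00576). Of the 10 tested genes of the family and its partners 4 fell and 2 rose, with a median of -0.26. Sik1, a kinase that acts on the deacetylases binding MEF2, fell by 2.45 (limma adjusted p = 2.82e-04), and Hdac7, one of these deacetylases, fell by 1.51 (limma adjusted p = 2.91e-04). Hdac5, another, rose by 0.73 (limma adjusted p = 0.0232), and did not pass when leukemia replicate 2 or any wild-type replicate was left out (limma adjusted p from 0.0538 to 0.0848).

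Of the 7 tested partners of SATB1, which bridge it to histone and nucleosome enzymes, 1 rose and 1 fell, with a median of 0.11. The acetyltransferase gene Kat2b rose by 0.38 (limma adjusted p = 0.0344), and did not pass when any array but leukemia replicate 1 was left out (limma adjusted p from 0.0636 to 0.119), nor when the run was a block (0.29, limma adjusted p = 0.1003). The remodeller gene Chd4 fell by 0.41 (limma adjusted p = 0.0106) with its brightest probe set, while its difference was 0.12 with the mean of its probe sets and 0.39 with those without a shared ending, neither of which passed.

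**Figure D4:**
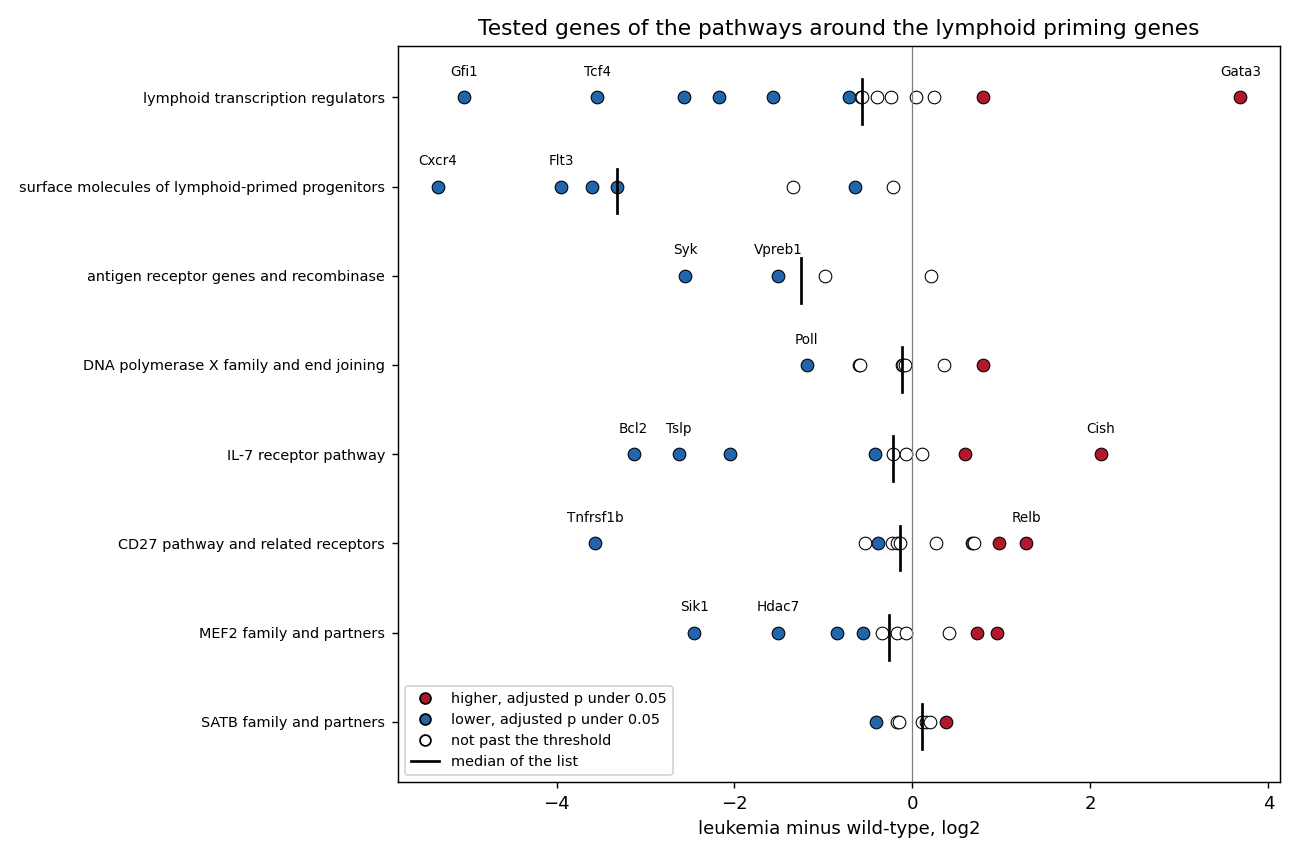
Difference of leukemia minus wild-type in log2 units (horizontal axis) for the tested genes of the 8 pathway lists (rows). Red and blue points passed limma's adjusted p in the higher and lower direction, white points did not, and bars mark the list medians. Gata3 and Cish lie to the right, and Gfi1 and Cxcr4 lie farthest to the left.

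Markers of mature lymphocytes were set beside these values. Of the 5 measured B cell markers Ms4a1, Cr2 and Fcer2a were dim on all 6 arrays, and the summed linear intensity of the 5 was 121 to 284 in leukemia, against 252 to 335 in wild-type cells. Cd79b was at 6.62, 7.77 and 5.63 in leukemia, against 7.40, 7.85 and 7.72 in wild-type cells. Cd22 was at 4.89, 4.94 and 5.12 in leukemia, against 5.58, 5.51 and 6.36 in wild-type cells. Jchain of the antigen receptor list was at 3.63, 3.39 and 3.29 in leukemia, against 4.13, 4.59 and 7.25 in wild-type cells. Both Cd22 and Jchain, picked by no rule, were highest on wild-type replicate 3, as was Ighm by its brightest probe set. Every other measured gene of the antigen receptor list was highest on wild-type replicate 2, Cd79b, Igll1 and Blnk among them. Of the 4 measured T cell markers Cd5 and Cd8a were dim on all arrays, and the sum was 473 to 808 in leukemia, against 285 to 295 in wild-type cells. The members differed in direction. The adaptor gene Lat, the brightest of them, was at 8.75 to 9.58 in leukemia against 7.71 to 7.81 in wild-type cells, while Thy1 was at 3.74 to 4.34 against 5.01 to 5.92 and Cd5 at 3.15 to 3.26 against 3.50 to 3.97. The 4 natural killer cell markers summed to 305 to 335 in leukemia and 2291 to 2884 in wild-type cells. Most of this sum in both groups was that of Nkg7, a granule gene that myeloid progenitors also express. Nkg7 was at 7.48 to 7.73 in leukemia against 11.06 to 11.42 in wild-type cells. Prf1, the other tested gene of this list, was at 6.59 to 6.87 in leukemia against 6.32 to 6.44 in wild-type cells (limma adjusted p = 0.129), and Klrd1 was dim on all arrays. The 5 markers of plasmacytoid dendritic cells summed to 522 to 1606 in leukemia, Ly6d among them, and to 820 to 1103 in wild-type cells. In wild-type cells this sum was 820, 1103 and 851 on replicates 1, 2 and 3, and Cox6a2 of this list was at 7.17, 8.37 and 7.89. Of the 3 tested genes of the list 1, Cox6a2, had the order of replicate 2, then 3, then 1. Klk1 was at 7.21, 7.19 and 7.10, and Bst2 was lowest on replicate 3. Ccr9, left out as dim, was at 4.99 to 5.88 in leukemia against 3.69 to 4.22 in wild-type cells. The part of such cells in the values of the 6 genes was not tested.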

How the data were processed

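Expression was measured on Affymetrix Mouse430_2 arrays from 200 ng of total RNA a sample, per the labels. The deposited intensity values are linear (3.31 to 18869), and RMA was used per the submitters' processing notes. Its version and further scaling are not given in the sources used here. RMA commonly gives log2 values, so log2 was taken here with no pseudocount. All 6 columns were mapped to samples by accession, groups come from the titles, and 0 columns were left unmapped. The wild-type labels speak of mice in the plural, so pooling is possible, and p-values then cover the spread of these arrays, which may be technical.

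Of 28821 probe sets 23750 had 1 gene symbol, and only these were named. The probe set with the highest mean stood for a gene. Genes that reached the array's 40th percentile on 3 or more arrays were tested (9715 of 13146), so a gene could pass through 1 group alone. Groups were set against each other by limma 3.58.1, run under R 4.3.3 (linear model and eBayes, trend on, 4 residual degrees of freedom, two-sided, Benjamini-Hochberg adjustment over all tested genes, threshold 0.05). Differences are leukemia minus wild-type. The procedure was tested on simulated data. The genes and lists were chosen with earlier results of these data known. Named pathway genes were up to 2 rises and 2 falls per list past the threshold without overlap, fixed relatives and partners (Mef2b, Il2rg and Cd70 among them not analysed here), and the 2 nearest genes of each of the 6. Same-numbered arrays of the groups were compared for pairing, and their deviations correlated at -0.07, 0.05 and 0.03. Figures used matplotlib 3.10.9.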

Additional observations from a re-analysis of the deposited data

How the results depend on the processing

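All 6 genes stayed lower in leukemia under the 14 alternatives recomputed for them, except Ighm with probe sets without shared endings, at 0.18. That Ighm probe set was dim on all 6 arrays. Array weights, the trend and the filters were not among the 14. Adding 16 before the log gave -5.01 for Mef2c, -3.62 for Satb1, -4.63 for Dntt, -3.75 for Cd27, -2.11 for Il7r and -4.11 for Ighm. Raising values below the 40th percentile to it, chosen after seeing the data, gave -4.27, -2.87, -4.28, -2.92, -1.27 and -4.20 in that order. The mean of all probe sets gave -4.45 for Mef2c, -2.40 for Satb1, -4.84 for Dntt, -2.12 for Il7r and -1.23 for Ighm, and without shared endings Dntt was at -4.48. With the fluidics run as a block, in which the contrast rests on leukemia replicate 1, Mef2c was at -6.87 and Cd27 at -4.78. Leaving out each array gave -6.61 to -6.16 for Mef2c, -5.04 to -4.77 for Satb1, -5.93 to -5.02 for Dntt, -5.36 to -5.05 for Cd27, -3.38 to -2.80 for Il7r and -5.03 to -4.49 for Ighm. It gave 2647 to 4716 changed genes over all tested (1106 to 1938 higher, 1513 to 2778 lower) and 25 to 48 in the pathway lists (6 to 15 higher, 19 to 33 lower), the lowest totals without wild-type replicate 3 over all tested and without wild-type replicate 2 in the lists. Chd4 turned to 0.12 with the mean of its probe sets and 0.39 without shared endings. The replicate numbers did not pair the samples, and with the replicate block 3565 genes changed in place of 4089, with 34 in the pathway lists in place of 37, and Kat2b did not pass (limma adjusted p = 0.0860). The spread of the wild-type arrays was recomputed after seeing the data with 16 added, both probe set rules, centring and quantile normalization, and 4 to 6 of the 6 genes kept a difference of at least 0.5. Values near the low end of the arrays limit the size of each fall, and no detection calls were used. The causes were not tested.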
